A study of Mus musculus with 6 samples.

Results

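Klf1, Epor, Car1, Car2, Rhag, Ermap, Slc4a1 and Add2 are 8 genes of the erythroid lineage, which leads from haematopoietic progenitors to red blood cells. They were taken by symbol from a table of 53465 genes measured in mouse bone marrow cells sorted for long-term haematopoietic stem cells (LT-HSCs). The sort took cells that were Lineage-, Sca-1+, c-Kit+, Flk2- and CD34-. The carnosine group held 3 libraries of LT-HSCs from wild-type mice that had received 5.0 Gy of total body irradiation and then carnosine, a dipeptide built from histidine and beta-alanine. The saline group held 3 libraries of the same sort from wild-type mice that had received the same irradiation and then saline. Irradiation is thus shared by all 6 libraries, and unirradiated cells were not analysed here. The sources used here give no dose, route or timing of carnosine and no age, sex or pooling of the mice. Nothing states that the 3 libraries per group stand for different animals; p-values therefore measure only how these samples vary, and that variation may be technical.

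Red cell formation begins when progenitors come under the control of GATA factors and of Klf1, a zinc finger factor that binds CACCC-type sites at globin and other erythroid genes. Erythropoietin, sensed by Epor through the kinase Jak2 and the factors Stat5a and Stat5b, then supports survival and division of committed progenitors. Carbonic anhydrases, the ammonia and gas channel protein Rhag, the anion exchanger Slc4a1 and the membrane skeleton with its adducins equip the growing red cell, and most of these proteins become abundant only after commitment. A stem cell gate is meant to leave such committed cells out, so these transcripts were read here as levels in the sorted pool. In a pool of cells, fewer cells of a type and less RNA per cell cannot be told apart.

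Library totals were 12730837 to 13651553 counts with carnosine and 12602067 to 16866534 counts with saline. All 8 genes passed the filter on low counts, with 68 counts in the lowest library of any of them and 11041 in the highest. Carnosine libraries had 3038 genes higher and 3077 lower of the 15533 tested, which is 39.4% called in either direction, 19.6% higher and 19.8% lower. A test with limma on log2(FPKM + 1) values covered a different set, the 13348 genes with at least 1 FPKM in 3 libraries. There the split was 3387 higher and 2156 lower, and the median of the genes tested was 0.051 on the log2 scale. Transcripts of the gate itself were seen in both groups. Kit averaged 378 ± 4.11 counts scaled to library size (CPM) with carnosine and 330 ± 10.2 CPM with saline (SD, n = 3 each, as for the next 3 genes). Ly6a, which encodes Sca-1, averaged 29.2 ± 8.79 CPM with carnosine and 30.2 ± 8.13 CPM with saline. Flt3, which encodes Flk2, was at 180 ± 2.51 CPM with carnosine and 210 ± 8.64 CPM with saline, and Cd34 at 301 ± 4.70 CPM with carnosine and 329 ± 19.0 CPM with saline. The Flk2 and CD34 transcripts were thus well above 0 in cells gated as negative for both proteins.

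GATA factors recognise the letters AGATAA or TGATAA on either strand, and these letters are capitalised in the stretches shown here because 4 of the 5 promoters matched share them. Promoter windows of 300 bases around the RefSeq start sites were matched by symbol for 5 of the 8 genes (Klf1, Epor, Rhag, Ermap and Add2), while Car1, Car2 and Slc4a1 were not matched. The stretches are those of 4 windows upstream of the first annotated start, 5′ to 3′ on the strand of the gene, from RefSeq on GRCm38.p6: Klf1 at chr8:84901732-84901927 (+), Epor at chr9:21963577-21963826 (-), Rhag at chr17:40810899-40811125 (+) and Ermap at chr4:119190012-119190245 (-).
Klf1: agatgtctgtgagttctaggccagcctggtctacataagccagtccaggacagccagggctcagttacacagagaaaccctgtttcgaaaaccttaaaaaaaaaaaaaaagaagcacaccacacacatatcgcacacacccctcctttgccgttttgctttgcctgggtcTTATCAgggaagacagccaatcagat
Epor: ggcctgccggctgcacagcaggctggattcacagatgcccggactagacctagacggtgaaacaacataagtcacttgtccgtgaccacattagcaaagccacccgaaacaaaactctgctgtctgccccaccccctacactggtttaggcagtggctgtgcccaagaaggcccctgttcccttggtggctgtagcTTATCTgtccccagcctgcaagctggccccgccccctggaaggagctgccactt
Rhag: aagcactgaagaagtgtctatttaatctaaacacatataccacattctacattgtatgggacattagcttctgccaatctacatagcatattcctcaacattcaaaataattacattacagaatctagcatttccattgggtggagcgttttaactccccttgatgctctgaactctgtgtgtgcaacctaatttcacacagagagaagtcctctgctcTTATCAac
Ermap: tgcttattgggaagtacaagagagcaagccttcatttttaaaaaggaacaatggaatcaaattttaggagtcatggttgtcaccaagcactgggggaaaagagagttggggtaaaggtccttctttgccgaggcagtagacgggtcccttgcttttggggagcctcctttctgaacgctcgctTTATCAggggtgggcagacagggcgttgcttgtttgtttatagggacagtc
In each of the 4, the match is on the strand opposite the gene, so it reads TTATCA or TTATCT here. They begin 80 bases before the RefSeq start in Klf1, 54 in Epor, 31 in Rhag and 67 in Ermap, and the window of Add2 holds none. Of all 32851 promoter windows of the same length, 18.6% hold such letters, and 11% of the 12881 windows of tested genes. The short motif CACCC was in 5 of 5 windows of these genes, against 57.5% of all windows and 63.2% of those of tested genes. A looser motif of 8 bases, CCNCNCCC, need not hold CACCC, and its matches in Add2 do not. It was in 2 of 5 (Epor and Add2), against 49.5% of all windows and 66.4% of those of tested genes, and some of its matches overlap those of CACCC. A match is a string of letters and not a measured binding site.

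**Figure D1:**
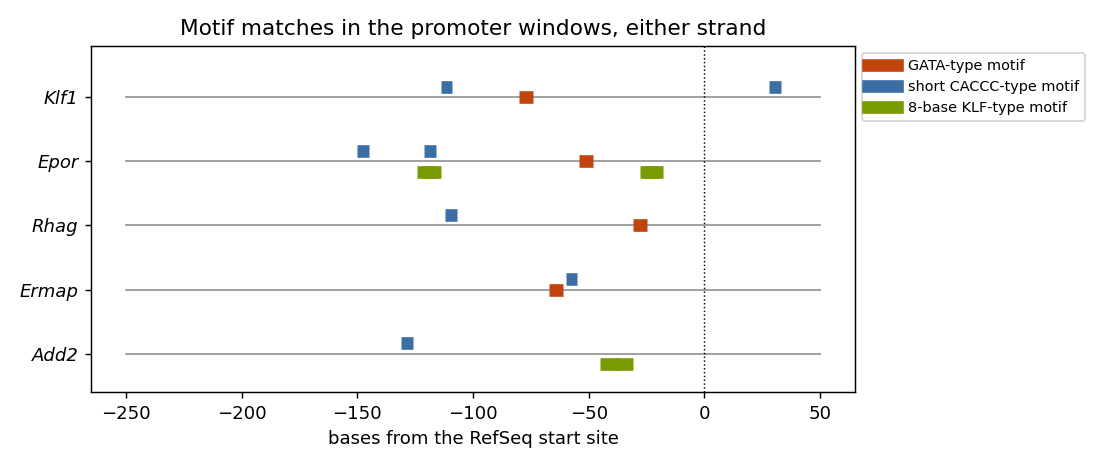
Positions of 3 motifs in the 300-base promoter windows of 5 genes, in bases from the RefSeq start site; each line is a gene and each block a match on either strand. GATA-type matches lie 80, 54, 31 and 67 bases before the start in Klf1, Epor, Rhag and Ermap, and Add2 has none.

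Of the 8 genes, 6 were higher and 1 lower with carnosine, and Car2 did not pass the test (quasi-likelihood test of edgeR with Benjamini-Hochberg adjustment over all genes tested, threshold 0.05). The called share of 7 of 8 stands beside 39.4% of all genes tested, and the 6 higher beside 19.6%. The 8 genes and the lists described below were chosen with earlier results of these data known. Their shares therefore describe these genes and do not test them against the rest. Their median log2 fold change was 0.36, against -0.0001 over all genes tested. In 7 of the 8 the libraries of the 2 groups did not overlap, which held for 52.3% of all genes tested. Of these 7, 6 had every carnosine library above every saline library, beside 26.2% of all genes tested, and 1 had every carnosine library below, beside 26.1%. None changed by 2-fold or more. The summed level of the 8 genes was 1629 to 1676 CPM with carnosine and 1307 to 1361 CPM with saline.

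**Figure D2:**
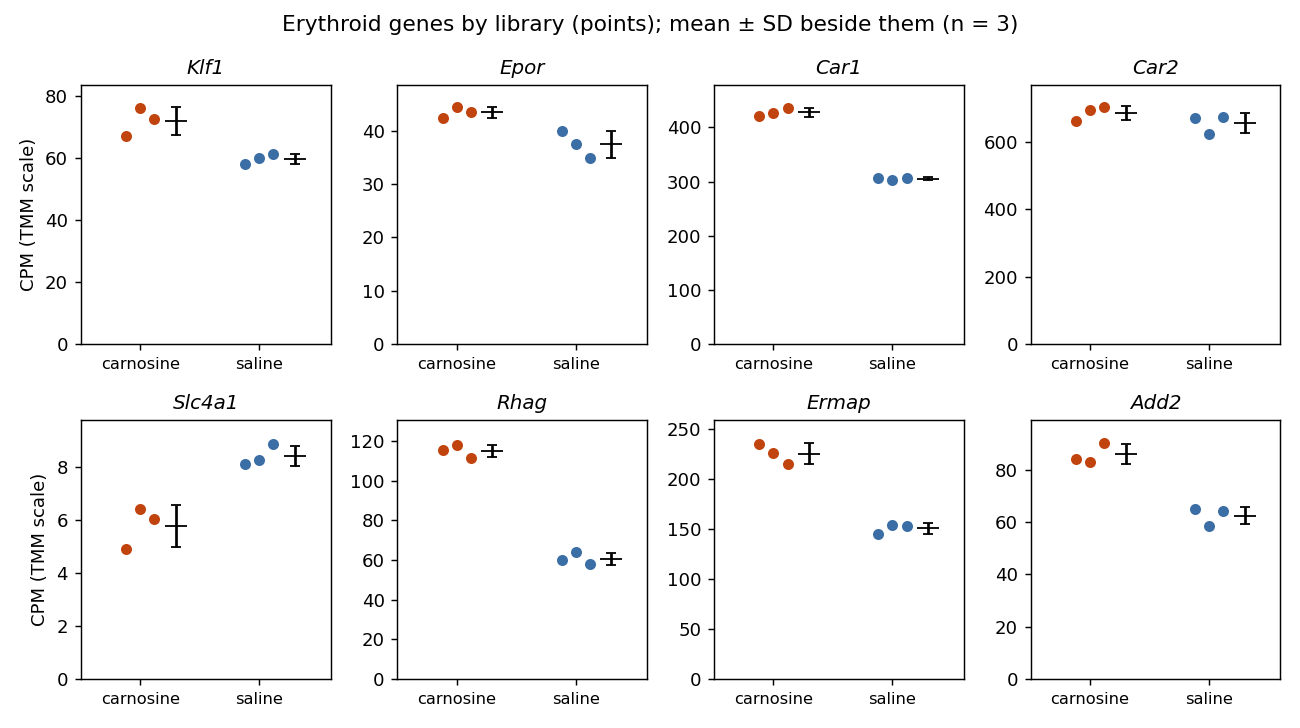
Level of the 8 genes in each library (CPM, TMM scale, linear axis from 0), carnosine left and saline right; points are libraries and the bar beside them is the mean ± SD (n = 3). The groups are separate for every gene except Car2, and Slc4a1 is the one gene whose carnosine libraries lie below those of saline.

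Klf1 (ENSMUSG00000054191, GRCm38 chr8:84901928-84905291, + strand) had 66.9, 75.8 and 72.6 CPM in the carnosine libraries, against 57.8, 60.0 and 61.2 CPM in the saline libraries. Every carnosine library was above every saline library, with a wider spread among the carnosine libraries. The mean was 71.8 ± 4.54 CPM with carnosine and 59.7 ± 1.69 CPM with saline (SD, n = 3 each), which is a log2 fold change of 0.27 ± 0.057 (SE, edgeR adjusted p = 0.00916). This 1.20-fold rise kept its call in all 15 alternatives that refit the data, with adjusted p of at most 0.0332. The factor that drives terminal red cell genes in erythroblasts was thus measurable in every library of this stem cell sort. Among 4659 tested genes of similar mean level, the profiles over the 6 libraries nearest to that of Klf1 were those of Heatr6, Cars and Ttc9c, with root mean square distances of 0.0107, 0.0248 and 0.0302 on the log2 scale, against a median distance of 0.174. Being the smallest of so many distances, they lie below the median by selection, and no shared regulation was tested.

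Epor (ENSMUSG00000006235, chr9:21958897-21963506, - strand) encodes the receptor for erythropoietin. It had 42.3, 44.4 and 43.5 CPM with carnosine, against 39.9, 37.5 and 34.8 CPM with saline. The groups did not overlap, though the lowest carnosine library and the highest saline library were only a small step apart. The mean was 43.4 ± 1.07 CPM with carnosine and 37.4 ± 2.55 CPM with saline (SD, n = 3 each), with a log2 fold change of 0.21 ± 0.063 (SE, edgeR adjusted p = 0.0326). The call was lost in 8 of 15 alternatives that refit the data. Among them, adjusted p was 0.0805 with no filter, 0.111 in the DESeq2 Wald test, 0.057, 0.0922 and 0.0777 without carnosine library 1, 2 or 3, and 0.0821 and 0.0855 without saline library 2 or 3. Its log2 fold change stayed between 0.16 and 0.27. Nearest to its profile among 4932 genes of similar level were H2-T24, Gm25745 and Fam98a, at distances of 0.0215, 0.0255 and 0.0273 against a median of 0.163. These too lie below the median by selection.

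The enzyme pair of the group behaved differently from each other. Car1 and Car2 encode cytosolic carbonic anhydrases, which interconvert carbon dioxide and bicarbonate, and lie close together on chromosome 3. Car1 (ENSMUSG00000027556, chr3:14766216-14808368, - strand) had 420.3, 426.6 and 436.0 CPM with carnosine, against 307.3, 302.1 and 306.7 CPM with saline. The 3 libraries of each group lay close together and the groups were far apart. Car1 averaged 427.6 ± 7.88 CPM with carnosine and 305.4 ± 2.85 CPM with saline (SD, n = 3 each), a 1.40-fold rise with a log2 fold change of 0.49 ± 0.024 (SE, edgeR adjusted p = 8.4e-06). The pseudogene Gm16399, which lies within Car1, had only 1 to 3 counts in any library.

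Car2 (ENSMUSG00000027562, chr3:14886273-14900770, + strand) is the carbonic anhydrase shared by many tissues and was the gene of this group with the most counts. Its libraries had 660.3, 693.5 and 701.7 CPM with carnosine, against 669.2, 622.8 and 674.4 CPM with saline. The groups overlapped: carnosine library 1 was below saline libraries 1 and 3. The means were 685 ± 21.9 CPM with carnosine and 655 ± 28.4 CPM with saline (SD, n = 3 each), and the log2 fold change of 0.064 ± 0.038 (SE) did not pass the test (edgeR adjusted p = 0.23). No alternative called it, with adjusted p between 0.0503 and 0.539. Car13 and Car3 lie in the same stretch of chromosome 3. Car13 averaged 16.9 ± 1.5 CPM with carnosine and 19.8 ± 0.113 CPM with saline (edgeR adjusted p = 0.0585), and Car3 averaged 6.32 ± 1.27 CPM with carnosine and 5.69 ± 0.41 CPM with saline (edgeR adjusted p = 0.50). Neither passed the test, but Car13 was called lower among genes with at least 5 CPM (adjusted p = 0.0461) and without carnosine library 1 (log2 fold change -0.30, adjusted p = 0.02).

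Rhag, Ermap and Slc4a1 encode proteins of the red cell surface, and the first 2 of them had the largest log2 fold changes of the 8 genes. Rhag, the Rh-associated glycoprotein that conducts ammonia and carries the Rh antigens to the membrane, had 115.4, 117.8 and 111.5 CPM with carnosine, against 59.9, 64.0 and 58.0 CPM with saline. The lowest carnosine library was well above the highest saline library. Rhag (ENSMUSG00000023926, chr17:40811126-40840754, + strand) averaged 114.9 ± 3.16 CPM with carnosine and 60.6 ± 3.07 CPM with saline (SD, n = 3 each), with a log2 fold change of 0.92 ± 0.048 (SE, edgeR adjusted p = 1.1e-05), which is 1.89-fold.

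Ermap is an erythroid membrane protein of the immunoglobulin superfamily that carries the Scianna blood group antigens in humans. It had 234.5, 226.0 and 214.2 CPM with carnosine, against 144.4, 153.7 and 152.8 CPM with saline. The groups did not overlap, and the spread within either was small beside the gap between them. Ermap (ENSMUSG00000028644, chr4:119175457-119190011, - strand) averaged 224.9 ± 10.2 CPM with carnosine and 150.3 ± 5.15 CPM with saline (SD, n = 3 each), a 1.5-fold rise with a log2 fold change of 0.58 ± 0.042 (SE, edgeR adjusted p = 5.9e-05).

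Slc4a1, also called band 3, exchanges chloride for bicarbonate and anchors the red cell skeleton. It was the one gene of the 8 that fell. It had 4.89, 6.42 and 6.02 CPM with carnosine, against 8.12, 8.24 and 8.85 CPM with saline. Every carnosine library was below every saline library, and carnosine library 1 was the lowest. Slc4a1 (ENSMUSG00000006574, chr11:102348824-102366203, - strand) averaged 5.78 ± 0.793 CPM with carnosine and 8.41 ± 0.392 CPM with saline (SD, n = 3 each), with a log2 fold change of -0.54 ± 0.124 (SE, edgeR adjusted p = 0.0123). These levels rest on 68, 89 and 78 counts with carnosine and 134, 127 and 109 counts with saline. The fall was called in all 15 alternatives, with adjusted p of at most 0.0427. On the log2(FPKM + 1) scale, which understates changes of low genes, its log2 fold change was -0.28, and with a pseudocount of 0.1 it was -0.46.

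Add2 (ENSMUSG00000030000, chr6:86028681-86124409, + strand) encodes beta-adducin, which caps actin filaments at the junctions of the spectrin skeleton. It had 84.3, 83.2 and 90.3 CPM with carnosine, against 64.9, 58.6 and 64.1 CPM with saline. All carnosine libraries were above all saline libraries. Add2 averaged 85.9 ± 3.81 CPM with carnosine and 62.5 ± 3.42 CPM with saline (SD, n = 3 each), a 1.37-fold rise with a log2 fold change of 0.46 ± 0.056 (SE, edgeR adjusted p = 0.000717). The annotated genes Gm44090 and Gm44089 overlap Add2 and had 0 and at most 4 counts in any library. Its paralogs did not follow it: Add3 fell, with 102 ± 2.38 CPM with carnosine and 115 ± 3.71 CPM with saline (log2 fold change -0.17 ± 0.038, edgeR adjusted p = 0.0112, 0.0615 with limma on log2(FPKM + 1)), and Add1, at 114 ± 8.62 CPM with carnosine and 123 ± 2.80 CPM with saline, did not pass the test (edgeR adjusted p = 0.168).

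**Figure D3:**
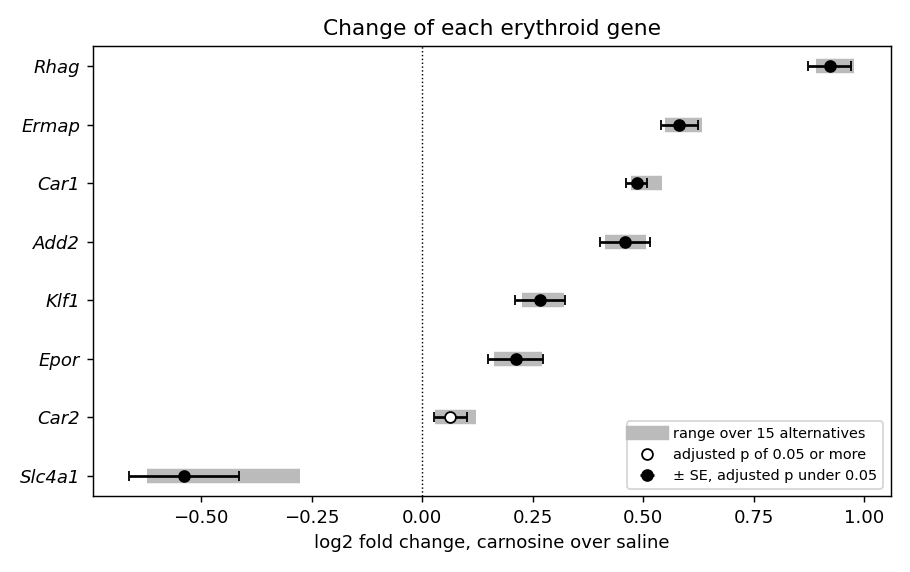
Log2 fold change of each gene, carnosine over saline, with its SE; filled points have an adjusted p under 0.05, the open point does not, and grey bars span 15 alternative settings. Rhag stands highest at 0.92, Car2 is near 0 at 0.064, and Slc4a1 is at -0.54.

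Levels were compared between genes on the deposited FPKM values, which divide by gene length. The lengths that these values imply were 1833 bases for Car1, 3058 for Car2, 2244 for Epor, 11643 for Ermap and 14968 for Add2. The order between genes rests on these lengths. In CPM, Car2 was above Car1 with carnosine (685 against 428) and with saline (655 against 305), and Ermap was above Epor (225 against 43.4 and 150 against 37.4). With carnosine, Car1 stood first at 237.5 ± 4.17 FPKM and Car2 second at 228 ± 7.12 FPKM, with ranges just short of touching, while with saline Car2 led at 209.7 ± 8.70 FPKM and Car1 followed at 163 ± 1.25 FPKM (SD, n = 3 each). Rhag, at 50.01 ± 1.41 FPKM, and Klf1, at 47.8 ± 3.01 FPKM, overlapped with carnosine. With saline, Klf1, at 38.2 ± 1.07 FPKM, stood above Rhag, at 25.4 ± 1.33 FPKM. Epor and Ermap were both at 19.7 FPKM with carnosine, with SDs of 0.478 and 0.911 and overlapping ranges, and were apart at 16.3 ± 1.12 and 12.6 ± 0.439 FPKM with saline. Add2, at 5.84 ± 0.254 FPKM with carnosine and 4.09 ± 0.217 FPKM with saline, and Slc4a1, at 1.11 ± 0.152 FPKM with carnosine and 1.55 ± 0.0703 FPKM with saline, were lowest in both groups. The order of the mean FPKM of these 8 genes thus differed between the groups at 2 places, Car1 with Car2 and Rhag with Klf1. For Rhag and Klf1 the order with carnosine is not settled, because their ranges overlapped.

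**Figure D4:**
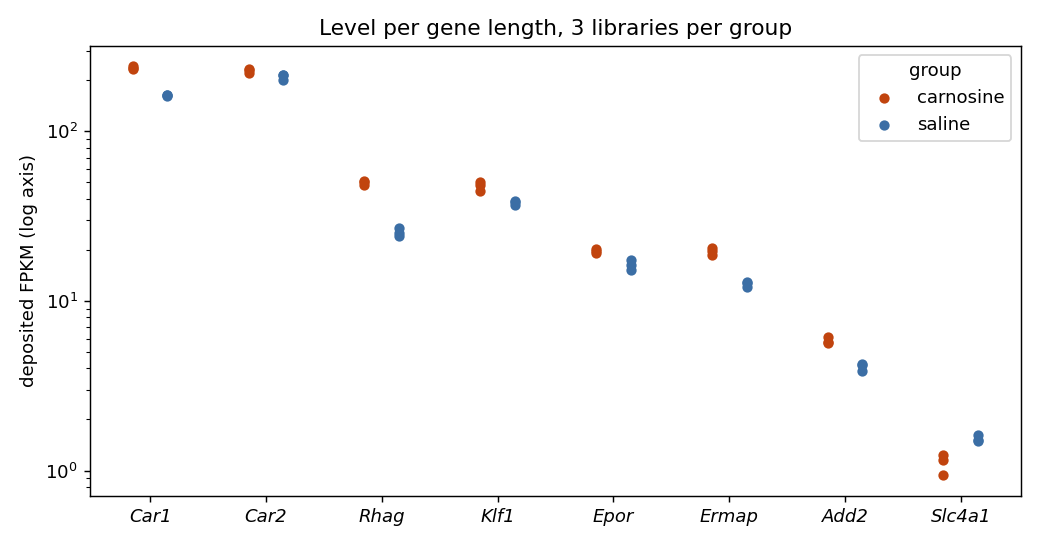
Deposited FPKM of the 8 genes in each library on a log axis, ordered by the carnosine mean, with carnosine points left of saline points. Car1 lies above Car2 and Rhag beside Klf1 in carnosine libraries, while in saline libraries Car2 lies above Car1 and Klf1 above Rhag.

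Ratios within a library, which do not depend on the scaling of libraries, were formed for 3 pairs chosen after the values were seen, so they serve as a description. The FPKM ratio of Car1 to Car2 was 1.06, 1.03 and 1.04 in the carnosine libraries, against 0.766, 0.809 and 0.759 in the saline libraries. The ratio of Rhag to Slc4a1 was 53.6, 41.7 and 42.0 with carnosine, against 16.7, 17.6 and 14.9 with saline. That of Rhag to Klf1 was 1.13, 1.016 and 1.005 with carnosine, against 0.677, 0.698 and 0.620 with saline. In none of the 3 ratios did the groups overlap. A two-sided exact permutation test gave p = 0.1 for each (0.1 after adjustment over the 3 pairs), the smallest value that 3 libraries against 3 allow. Because the pairs were chosen after the values were seen, neither the separation nor this p-value is evidence about them.

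Around these 8 genes, 6 lists of related genes were described in the same fit, 102 different genes in all. Of their 85 tested genes, 20 were higher and 28 lower with carnosine, shares that stand beside 19.6% and 19.8% of all genes tested, and their median log2 fold change was -0.11. The 8 genes themselves are not in these lists.

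Of 18 erythroid transcription factors, 3 rose and 8 fell, with a median log2 fold change of -0.19. Myb, which keeps early erythroid progenitors dividing, rose to 861 ± 19.3 CPM with carnosine, against 646 ± 6.24 CPM with saline (log2 fold change 0.41 ± 0.024, edgeR adjusted p = 1.8e-05). The other 2 that rose were Cited2, a transcriptional coregulator, and Bcl11a, a repressor of fetal globin genes, with log2 fold changes of 0.41 and 0.12. Bcl11a was not called by DESeq2 (adjusted p = 0.0874). Among those that fell was Gata2, the GATA factor of stem cells and early progenitors, at 197 ± 4.97 CPM with carnosine and 357 ± 4.18 CPM with saline (log2 fold change -0.86 ± 0.027, edgeR adjusted p = 1.2e-06). Bach1, a haem-sensing repressor, fell by 0.81 on the log2 scale and Foxo3, a stress-response factor of erythroblasts, by 0.41. Gata1, the master factor of the erythroid and megakaryocytic lineages, named after its values were seen, averaged 89.6 ± 5.36 CPM with carnosine and 104.9 ± 2.80 CPM with saline and fell too (log2 fold change -0.23 ± 0.051, edgeR adjusted p = 0.0108). Klf1 and Gata1, partners at many erythroid genes, thus changed in opposite directions.

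Early erythroid surface and enzyme genes split, with 8 of 18 higher, 5 lower and a median log2 fold change of 0.10. Tfrc, the transferrin receptor for iron uptake, rose to 353 ± 7.75 CPM with carnosine, against 301 ± 6.09 CPM with saline (log2 fold change 0.23 ± 0.027, edgeR adjusted p = 0.000589). Ank1, which encodes ankyrin, and Atp1b2, a sodium pump subunit, rose by 0.38 and 0.29 on the log2 scale. Mfsd2b, the sphingosine-1-phosphate exporter of red cells and platelets, fell to 129 ± 7.16 CPM with carnosine, against 229 ± 22.5 CPM with saline (log2 fold change -0.83 ± 0.075, edgeR adjusted p = 0.000168). Aqp1, Icam4 and Cnrip1, named after their values were seen, were also among those that fell. The call of Cnrip1 was lost without carnosine library 1 or 2 (adjusted p 0.057 and 0.0524). The summed level of this list overlapped between the groups, at 1616 to 1636 CPM with carnosine and 1588 to 1635 CPM with saline.

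The list of red cell membrane skeleton and complexes, which shares some genes, among them Ank1, Icam4, Kel and Rhd, with the list before, held 7 higher and 8 lower of 20, with a median of -0.14. Sptb, which encodes erythroid beta-spectrin, rose to 70.9 ± 1.13 CPM with carnosine, against 43.1 ± 2.93 CPM with saline (log2 fold change 0.72 ± 0.059, edgeR adjusted p = 0.000105). Tmod1, which caps the pointed ends of actin, fell to 1.88 ± 0.588 CPM with carnosine, against 7.23 ± 0.561 CPM with saline (log2 fold change -1.94 ± 0.202, edgeR adjusted p = 0.000331). Slc2a1, a glucose transporter, fell by 0.95 and Cd44, a hyaluronan receptor, by 0.28 on the log2 scale. Beta-spectrin, ankyrin and beta-adducin transcripts thus rose, while band 3 and tropomodulin transcripts fell.

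The list of haemoglobin genes also holds Alas2, which is not a globin gene. This list was low in both groups, with a summed level of 74.5 to 76.5 CPM with carnosine and 55.7 to 60.4 CPM with saline. Of 5 tested, Alas2 among them, 3 rose and none fell. Hba-a1, an alpha-globin gene, was at 35.2 ± 0.965 CPM with carnosine and 25.6 ± 1.22 CPM with saline (log2 fold change 0.46 ± 0.059, edgeR adjusted p = 0.000879), and Hbb-bs, a beta-globin gene, at 13.2 ± 1.07 CPM with carnosine and 8.54 ± 1.5 CPM with saline (log2 fold change 0.62 ± 0.137, edgeR adjusted p = 0.0101). The call of the third, Hba-a2 (log2 fold change 0.68), was lost without carnosine library 1 or 2 (adjusted p 0.06 and 0.0785) and without saline library 1 or 2 (0.0767 and 0.0586), and DESeq2 gave 0.252. Alpha-globin and beta-globin genes exist as near-identical copies, so their split between copies is uncertain. Hbb-bt, with 22.8 CPM with carnosine and 21.96 CPM with saline, and Alas2, the erythroid enzyme of haem synthesis, with 1.99 CPM with carnosine and 1.48 CPM with saline, did not pass the test. The embryonic globin genes Hba-x, Hbb-y and Hbb-bh1 had 0 counts in all 6 libraries.

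Of 18 genes of erythropoietin receptor signalling, 9 were lower, 2 higher and 7 not called, with a median log2 fold change of -0.17. Cish, a STAT5-induced feedback inhibitor, fell to 18.0 ± 0.273 CPM with carnosine, against 84.3 ± 2.46 CPM with saline (log2 fold change -2.22 ± 0.049, edgeR adjusted p = 2.3e-07). Socs3, another feedback inhibitor, fell by 1.23, the kinase Pim1 by 0.81 and the MAPK inhibitor Spred1 by 0.60 on the log2 scale. Jak2, the kinase bound to the receptor, and Stat5b fell by 0.20 and 0.14, the second not called with limma on log2(FPKM + 1) (adjusted p = 0.101). The 2 that rose were Ptpn6, a phosphatase that dampens the receptor (log2 fold change 0.13, DESeq2 adjusted p = 0.0582), and Stat5a (0.10, DESeq2 adjusted p = 0.191), whose call was lost without carnosine library 1, 2 or 3 (adjusted p 0.0572, 0.0866 and 0.079) and without saline library 1 or 3 (0.0964 and 0.092). These feedback genes respond to several cytokine receptors, and which receptor they followed here was not tested. The summed level of the whole list of 18 genes was 1959 to 2009 CPM with carnosine and 2416 to 2474 CPM with saline.

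Of 25 paralogs of the 8 genes, 13 were tested, Add3 fell and none rose, beside 19.6% of all genes tested that rose. Some of the tested paralogs were near the floor, where changes are hard to call. Car5b, Car7, Car8 and Car15 each had only 68 to 87 counts over all 6 libraries together. Their log2 fold changes were -0.46, 0.61, -0.22 and 0.76, so the lack of a call there does not show a lack of change.

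**Figure D5:**
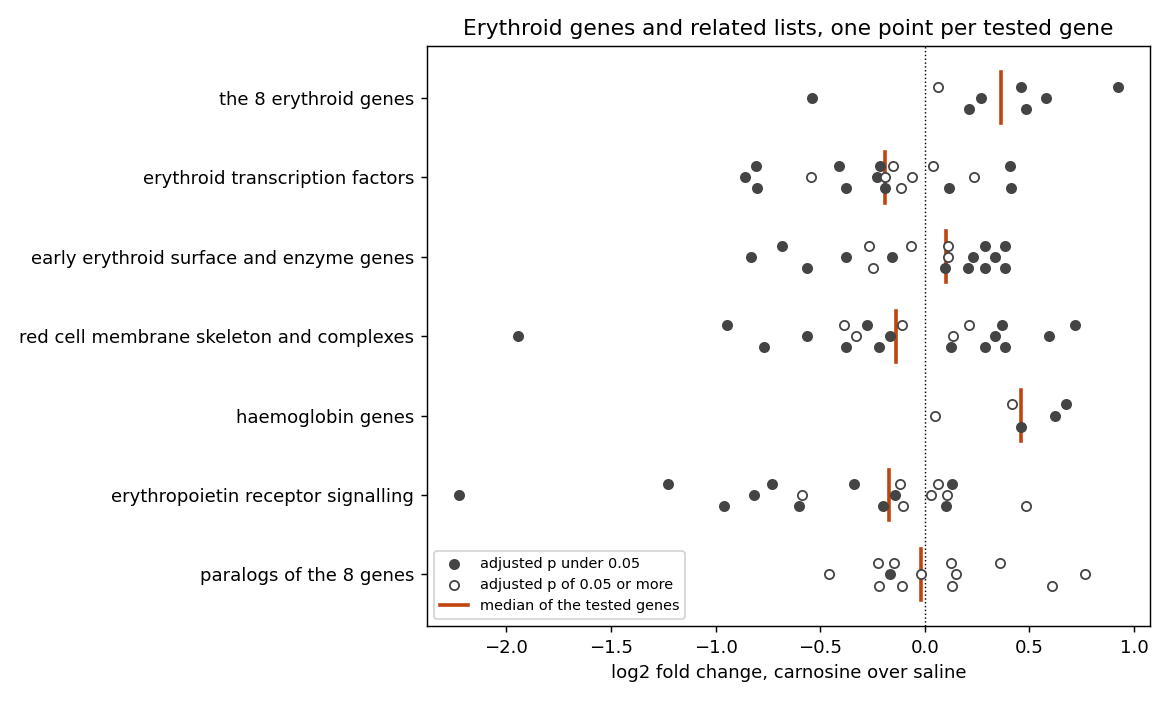
Log2 fold change (carnosine over saline) of each tested gene of the 8 erythroid genes and of 6 related lists; filled points have an adjusted p under 0.05, open points do not, and the vertical bar is the median of the tested genes. The median is 0.36 for the 8 genes and 0.46 for haemoglobin genes with Alas2, and lies at -0.19 for transcription factors, -0.14 for the membrane skeleton and -0.17 for erythropoietin receptor signalling.

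Markers of other cells that a marrow sort could hold moved beside these genes, and their counts stand beside 19.6% of all genes tested called higher and 19.8% called lower. Megakaryocyte markers, of a lineage that shares progenitors with red cells, fell in all 9 tested, with a median of -1.36, and their sum was 189 to 196 CPM with carnosine and 454 to 477 CPM with saline, with Gp6 at 0 in all libraries. Neutrophil progenitor markers rose in all 7, with a sum of 7804 to 8051 CPM with carnosine and 3744 to 3778 CPM with saline, most of it from Mpo. Of 9 late erythroblast and reticulocyte markers, 4 rose, among them the 3 haemoglobin genes described as higher, and 1 fell, with sums of 176 to 184 CPM with carnosine and 146 to 155 CPM with saline.

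The same shares over all genes tested, 19.6% higher and 19.8% lower, apply to the remaining lists. Smaller sums were seen for T cells, at 16.0 to 18.8 CPM with carnosine and 5.44 to 6.49 CPM with saline. Of this list, 4 of 4 tested markers were higher (the call of Trac was lost without carnosine library 3, adjusted p 0.067). Cd3d and Cd3g did not pass the filter, so this count does not cover the whole list. Cd3e and Trac passed the filter only through the carnosine libraries, at 1.004 to 1.44 CPM and 1.15 to 2.01 CPM. With saline, Cd3e had at most 0.303 CPM and Trac at most 0.727 CPM. Macrophage markers summed to 37.6 to 39.4 CPM with carnosine and 30.6 to 35.1 CPM with saline, with 2 of 4 tested higher (Vcam1 and Cd68) and Mrc1 lower. The call of Cd68 was lost on leaving out any library except saline library 3 (adjusted p 0.0716 to 0.122). Osteoclast markers were at 6.42 to 9.58 CPM with carnosine and 6.50 to 7.70 CPM with saline, with none of 2 tested called and Calcr at 0 in every library. B and plasma cell markers were at 327 to 626 CPM with carnosine and 355 to 368 CPM with saline, with Mzb1 higher and Ms4a1 lower of 7 tested. Ms4a1 had at most 0.309 CPM with carnosine and passed the filter only through the saline libraries, at 1.17 to 1.54 CPM. For the whole list, carnosine library 3 gave the low end of the carnosine range. Most of that sum was Jchain, at 584, 576 and 281 CPM in the carnosine libraries, against 314, 324 and 328 CPM in the saline libraries. Jchain was not called over all libraries (edgeR adjusted p = 0.108) and was higher without carnosine library 3 (log2 fold change 0.85, adjusted p = 1.4e-05). Of 10 gate and stem cell markers, Kit and Mki67 rose and Flt3, Slamf1, Fgd5 and Mecom fell. Slamf1, a surface marker of LT-HSCs, was at 14.99 ± 1.40 CPM with carnosine and 28.6 ± 0.736 CPM with saline. The part of these other cells in the changes of the 8 genes was not tested.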

How the data were processed

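Paired-end libraries were made from poly-A RNA of LT-HSCs sorted from mouse bone marrow, 3 from carnosine-treated and 3 from saline-treated mice, grouped by the sample titles. The submitters' processing notes name CASAVA 1.8, HISAT2, StringTie, edgeR and the build GRCm38 with no roles. The sources used here do not give the annotation, the strand setting or the counting of reads that match several genes. The deposited table gives a raw count and an FPKM value per gene and library, per the file headers. The deposited FPKM equal the count divided by gene length and library total, checked on 10713 genes. No per-sample column was left unused.

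The test was run in R 4.3.3 with edgeR 4.0.16: filterByExpr kept 15533 genes with 99.8% of all counts, TMM set the library scale, and the quasi-likelihood F-test compared carnosine with saline without covariates, with Benjamini-Hochberg adjustment over all genes and a threshold of 0.05. CPM, counts per library size on a common scale, use the TMM factors. SEs of log2 fold changes were computed as the size of the change over the root of F. The biological coefficient of variation was 0.0999, and log values correlated at 0.988 to 0.990 within groups and 0.959 to 0.962 between them, so no libraries were counted as duplicates. The fit was tested on simulated data for 15533 genes, with 100 genes changed 2-fold and 100 changed 1.3-fold. It recovered 72 of the first and 21 of the second, and 6 of the 99 genes called were unchanged. Many fewer genes were changed there than were called in the real data, so these shares need not hold here. A gene that was not called may still have changed by a small amount. Alternatives used DESeq2 1.42.0 and limma 3.58.1, among others. Gene positions are those of the deposited table, and 95.9% of its identifiers lie at the GENCODE M21 position. Promoter windows came from RefSeq.

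The 8 genes and all lists were chosen with earlier results of these data known. Named were the 8 genes, the 4 tested genes with the smallest p-values in each list, genes of counts of 5 or fewer (after their values were seen), and the 3 nearest profiles of Klf1 and Epor. Some list genes that this rule names are not reported here.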

Additional observations from a re-analysis of the deposited data

How the results depend on the processing

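Under the 15 alternatives that refit the data (other scaling, other filters, DESeq2, limma-voom, limma on FPKM, the replicate block and leaving out each library), Klf1, Car1, Rhag, Ermap, Add2 and Slc4a1 kept their direction and call, Car2 was called in none, and Epor lost its call in 8. Leaving out one library gave 5 to 6 of the 8 genes higher and 1 lower, 2491 to 2590 genes higher and 2591 to 2727 lower over the whole table, and 16 to 19 higher and 25 to 26 lower in the related lists. Asking also for at least a 2-fold change left 475 genes higher and 549 lower, 0 and 0 of the 8 genes, and 0 and 3 of the related lists. The DESeq2 Wald test called 13 of the related genes higher, against 20 with edgeR. As CPM per kilobase, Car1 was at 233.3 with carnosine and 166.6 with saline, against 237.5 and 163.0 FPKM, because FPKM divides by the unscaled total.

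Same-numbered libraries deviated together with correlations of only 0.0079, 0.0268 and 0.0210, though each library correlated best with its own number. The replicate block gave 2552 genes higher and 2679 lower, and adjusted p = 0.0649 for Epor.

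Reversals were limited to uncalled list genes. Without one library at a time, log2 fold changes ran from -0.33 to 0.19 for Ly6a (0.0881 and 0.0325 without carnosine library 1 or 2, 0.19 without saline library 1), from -0.16 to 0.36 for Lmo2 (-0.13 without carnosine library 2, -0.16 and -0.0298 without saline library 2 or 3), from -0.48 to 0.16 for Nfe2 (0.16 without carnosine library 1) and from -0.11 to 0.64 for Zbtb7a (-0.11 without carnosine library 3, -0.0975 without saline library 1). The cause was not tested. Of the 8 genes, Slc4a1 has the fewest counts, so depth limits its value most.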

Other observations

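Among the erythroid transcription factors, 4 genes singled out after their values were seen varied widely between libraries of one group, unlike Klf1, Gata1 and Myb. Zbtb7a, a globin repressor, had 22.7, 77.3 and 90.7 CPM with carnosine and 26.4, 76.8 and 58.9 CPM with saline. Nfe2, a factor of globin and platelet genes, had 33.9, 71.1 and 92.9 CPM with carnosine and 82.2, 70.4 and 66.8 CPM with saline. Lmo2, a bridging partner of GATA factors, had 118.9, 201.6 and 172.4 CPM with carnosine and 221.5, 113.2 and 143.5 CPM with saline.

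Library 1 was the lowest of both groups for Zbtb7a and of the carnosine group for Nfe2 and Lmo2. Zfpm1, the GATA cofactor also called FOG1, had 205, 193 and 142 CPM with carnosine and 224, 338 and 224 CPM with saline. Each of its carnosine libraries was below each saline library, and its log2 fold change of -0.54 missed the threshold (edgeR quasi-likelihood adjusted p = 0.0633). With the replicate number as a block it passed (adjusted p = 0.0318).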
